A study of Homo sapiens with 9 samples.

Results

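Amino acid supply genes encode the proteins that bring amino acids into a cell, make them, and load them onto transfer RNAs, together with regulators of the stress response that controls them. The set comprised 33 genes named by symbol: 8 transporters, 13 enzymes of amino acid and folate metabolism, 5 stress regulators and 7 cytosolic aminoacyl-tRNA synthetases. Of these, 30 had a probe set on the array that carried their symbol and no other gene's, out of 11963 genes measured in that way. GPT2, SESN2 and MARS1 had no such probe set and have no expression values here. Each gene was followed at its probe set with the highest mean over the cell lines.

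The series measured total RNA from 6 human cell lines on 9 Affymetrix Human Genome arrays, which read each gene by 1 or more sets of short probes (probe sets). The plasma cell myeloma (PCM) group held LP1, L363 and U266, with 1 array each. The B-cell lymphoma group held Namalwa, SU-DHL6 and SU-DHL4, with 2 arrays each; these 3 lines were labelled untreated, and no treatment was given for the PCM lines. All lines were grown in RPMI medium with fetal bovine serum. Values are the deposited RMA values in log2 units, where RMA is a procedure that corrects background, quantile-normalizes arrays and summarises the probes of a probe set. Each line is an established tumour line, so a group stands for 3 lines, and the 2 arrays of a B-cell line do not stand for 2 lines.

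ATF4 is the transcription factor of the integrated stress response. When amino acids are short, the kinase GCN2 phosphorylates the initiation factor eIF2, general translation falls, and ATF4 protein is made from an mRNA that is then translated better. ATF4 binds amino acid response elements near genes for amino acid uptake, serine, proline and asparagine synthesis, and tRNA charging. Plasma cells and myeloma cells secrete large amounts of antibody and are known for a high amino acid demand, and proliferating lymphoma cells also depend on amino acid import.

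The sequences below show that element in 5 members, among those where it lay wholly before an annotated start site. The promoters were taken from RefSeq (GRCh38.p14), 250 bases before to 50 after each start, and searched for TGATGNAA on both strands (TTNCATCA on the other), where N is any base. Some genes have several starts. Of the 28 members with a promoter in the table, 13 had at least 1 match (46.4%), against 1217 of all 27305 genes (4.46%) and 571 of 15843 protein-coding genes (3.6%). By promoter, the shares were 29.5% of 44 for the members and 3.62% of 35116 overall. Each line gives 60 bases in the direction of the gene, with the match in capitals.
ASNS, chr7:97872443-97872502, minus strand: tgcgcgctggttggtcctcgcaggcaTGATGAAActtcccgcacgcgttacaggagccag
AARS1, chr16:70289660-70289719, minus strand: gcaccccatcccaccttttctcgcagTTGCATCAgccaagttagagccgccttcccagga
CHAC1, chr15:40953236-40953295, plus strand: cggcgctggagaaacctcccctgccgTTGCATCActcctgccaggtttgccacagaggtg
GOT1, chr10:99430789-99430848, minus strand: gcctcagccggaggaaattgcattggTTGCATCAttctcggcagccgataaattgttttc
SLC1A5, chr19:46784878-46784937, minus strand: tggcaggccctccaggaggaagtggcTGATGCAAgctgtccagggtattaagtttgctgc

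The first base of the match lay 68 bases before the start in ASNS, 187 in AARS1, 209 in CHAC1 and 198 in GOT1. The ASNS start lies inside the annotated gene, and a second listed ASNS promoter had no match. In SLC1A5 the match lay 97 bases before an alternate start inside the gene, and the other 2 listed promoters had none. ASNS and SLC1A5 carried the element on the gene's strand, and AARS1, CHAC1 and GOT1 on the other strand. Matches were also present in SLC1A4, SLC3A2, SLC7A1, SLC38A1, CEBPG, GARS1, MARS1 and NARS1. By role, 5 of 7 transporters, 4 of 7 synthetases, 2 of 5 stress regulators and 2 of 9 enzymes had a match. The members had been picked as ATF4 targets, so the excess over other genes describes the choice, and a match does not show binding.

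The lines carried the markers of their labels. All 4 mature B-cell markers, MS4A1, CD79A, PAX5 and CD22, were lower in every PCM line than in every B-cell line, and PAX5 lay between 5.39 and 5.69, against 9.85 to 10.29. All 5 plasma cell markers, SDC1, PRDM1, IRF4, XBP1 and TNFRSF17, were higher in every PCM line, and IRF4 lay between 11.58 and 12.69, against 6.55 to 8.92. The 9 T-cell, myeloid and epithelial or stromal markers differed by at most 0.44 between any lines, the largest range being that of CD3E. The L363 and U266 arrays were nearly alike, with a standard deviation of their differences of 0.32 over all probe sets, while LP1 stood 0.55 from each. Duplicates differed by 0.22 (Namalwa), 0.24 (SU-DHL4) and 0.35 (SU-DHL6). The members also differed most between the SU-DHL6 duplicates, at 0.50, against 0.19 in Namalwa and 0.27 in SU-DHL4. Of 30 members, 9 had SU-DHL6 arrays over 0.5 apart (30.0%, against 11.2% of all named genes): SLC7A5, SLC38A2, ASNS, PHGDH, PSAT1, PSPH, TRIB3, WARS1 and SARS1. The Namalwa arrays came from an earlier publication of the same group, so line and time of production cannot be told apart for Namalwa.

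**Figure D1:**
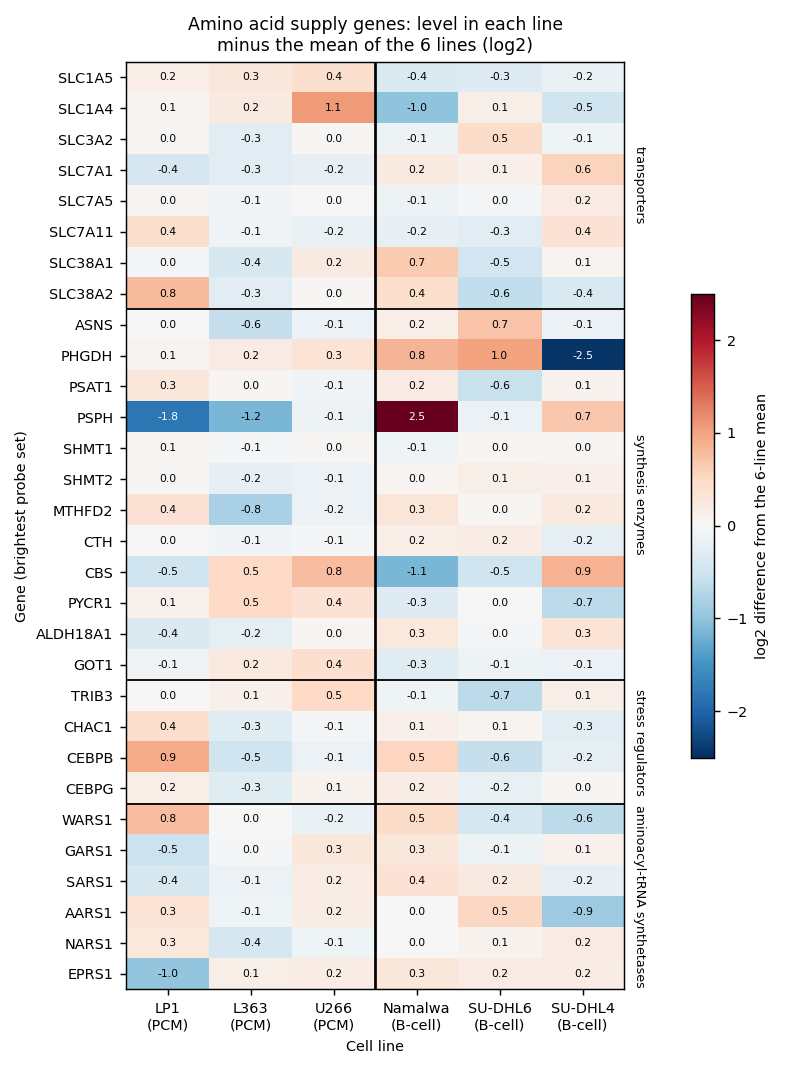
Levels of the 30 measured amino acid supply genes in 6 cell lines, shown as log2 difference from each gene's mean over the lines (columns, PCM lines first; rows grouped by role; duplicate arrays averaged). PHGDH was lowest in SU-DHL4, PSPH, at its brighter probe set, was highest in Namalwa and lowest in LP1, and EPRS1 was lowest in LP1.

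In PCM lines compared with B-cell lines, the amino acid supply genes showed little shared shift. SLC1A5, the main sodium-dependent glutamine transporter, rose, and no member fell at an adjusted p under 0.05 (limma, Benjamini-Hochberg over all 22215 probe sets). The 1 of 30 called higher (3.33%) compares with 1.12% of all probe sets called higher and 1.67% called lower. By gene, 162 of 11963 named genes were called higher and 233 lower. The median level of the members was 9.64, against 7.39 over all named genes, so shares of the members and of all genes compare genes at unlike levels. At an unadjusted p under 0.05, 3 of 30 members were higher and 3 lower, against 1267 and 1312 of 11963 named genes. The median difference over the members was 0.00, against 0.05 over all named genes, and 15 members had a positive and 15 a negative difference. Of all named genes, 59.9% had a positive difference. After a second quantile normalization the members split 16 to 14. After centring on the 75th percentile, which moved the median of all probe sets by 0.094, they split 18 to 12. Bulk RNA of a line does not tell fewer expressing cells from less RNA per cell. With 3 lines in each group, an exact permutation test cannot give a two-sided p below 0.10.

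SLC1A5 had 9.12 (LP1), 9.25 (L363) and 9.36 (U266) in the PCM lines, against 8.88 and 8.34 (Namalwa), 8.45 and 8.82 (SU-DHL6) and 8.76 and 8.83 (SU-DHL4) in the B-cell lines. Every PCM array was higher than every B-cell array. The PCM lines averaged 9.24 ± 0.12 and the B-cell lines 8.68 ± 0.10 (SD, n = 3 lines each), a 1.48-fold difference (0.57 in log2, SE 0.10, limma adjusted p = 0.0493). This call was lost without L363 (adjusted p = 0.157), U266 (0.123), Namalwa (0.132), SU-DHL4 (0.109) or SU-DHL6 (0.119), and with the near-alike L363 and U266 averaged (0.131). The difference stayed between 0.51 and 0.74 in all 19 alternatives, 7 of which called it.

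**Figure D2:**
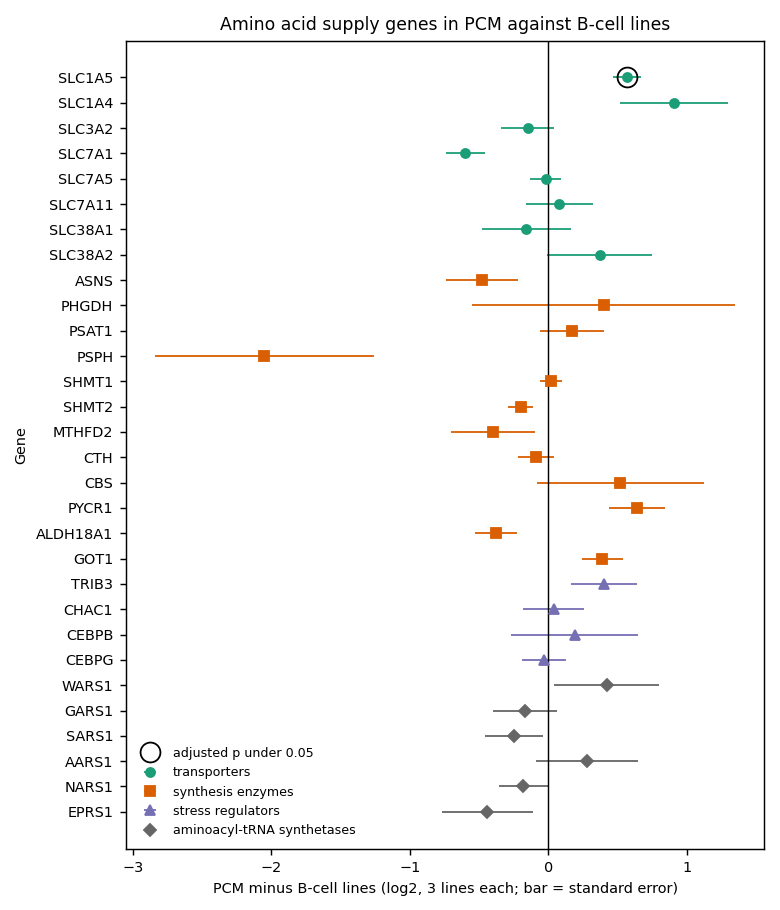
PCM minus B-cell difference (log2, horizontal axis) of the 30 measured genes, with bars for the standard error from 3 lines against 3 and symbols for the role. SLC1A5 passed the adjusted threshold, and PHGDH and PSPH had the widest bars, at 0.95 and 0.79.

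Among the other transporters, SLC7A1, the cationic amino acid transporter that takes up arginine and lysine, was low in all PCM lines. It had 9.94 (LP1), 10.08 (L363) and 10.15 (U266) in the PCM lines, against 10.42 to 11.01 on the 6 B-cell arrays, and the groups did not overlap. The difference of -0.60 (SE 0.14) did not pass the test (limma adjusted p = 0.0920), and it was -0.21, 0.16, 0.17 and -0.03 at the 4 dimmer probe sets of the gene. The adjusted p was 0.0237 in the authors' deposited table, where all 9 arrays entered as replicates. SLC1A4, a transporter of alanine, serine and cysteine, had 10.04 (LP1), 10.20 (L363) and 11.04 (U266), against 8.91 to 10.23 in the B-cell lines. SU-DHL6 lay within the PCM range, so the groups overlapped, and the difference of 0.91 (SE 0.39) gave an adjusted p of 0.275. Its 3 dimmer probe sets gave 0.88, 0.96 and 0.89. SLC7A5 and SLC3A2, the light and heavy chains of the leucine transporter LAT1, differed by -0.02 and -0.15.

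The enzymes divided evenly in sign, with 6 of 12 higher and 6 lower in PCM lines by their mean and none passing the test. At an unadjusted p under 0.05, 2 were higher and 2 lower, against 1267 and 1312 of 11963 named genes. PYCR1, which makes proline from pyrroline-5-carboxylate, had 9.93 (LP1), 10.31 (L363) and 10.17 (U266) in the PCM lines, against 9.55 and 9.44 (Namalwa), 9.71 and 9.95 (SU-DHL6) and 9.35 and 8.96 (SU-DHL4). The PCM lines exceeded all B-cell line means, although the second SU-DHL6 array lay just above LP1 (difference 0.64, SE 0.20, adjusted p = 0.168). ALDH18A1, which catalyses an earlier step of proline synthesis, went the other way by -0.38 (SE 0.15, adjusted p = 0.252). GOT1, the cytosolic aspartate aminotransferase, had 8.77 (LP1), 9.11 (L363) and 9.29 (U266), against 8.52 to 8.94 in the B-cell lines (difference 0.39, SE 0.15, adjusted p = 0.241); single arrays overlapped, line means did not. ASNS, which makes asparagine, had 10.32 (LP1), 9.74 (L363) and 10.17 (U266), against 10.06 to 11.32, and LP1 lay above both SU-DHL4 arrays, so the groups overlapped (difference -0.48, SE 0.26, adjusted p = 0.364).

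By line means, 3 members (10.0%) lay higher in all PCM lines than in all B-cell lines, namely SLC1A5, PYCR1 and GOT1, against 17.5% of all named genes. SLC7A1 and SHMT2 (6.67%) lay lower in all PCM lines, against 11.8%. SHMT2, the mitochondrial serine hydroxymethyltransferase, had 11.44 (LP1), 11.21 (L363) and 11.27 (U266), against 11.28 to 11.78 on the B-cell arrays, a difference of -0.20 (SE 0.09, adjusted p = 0.280). A dimmer SHMT2 probe set gave -0.72 and passed the test (adjusted p = 0.0208), and the remaining one gave -0.28 (adjusted p = 0.343). The SHMT2 call therefore differed between probe sets of the same gene.

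The serine pathway was uneven across lines. PHGDH commits glycolytic carbon to serine, PSAT1 transfers the amino group and PSPH removes the phosphate. PHGDH had 9.48 (LP1), 9.61 (L363) and 9.75 (U266) in the PCM lines, against 10.26 and 10.25 (Namalwa), 10.12 and 10.70 (SU-DHL6) and 6.74 and 7.19 (SU-DHL4). The PCM values lay between the low SU-DHL4 pair and the higher pairs of Namalwa and SU-DHL6 (difference 0.40, SE 0.95, adjusted p = 0.833). PSAT1 lay between 9.61 and 9.97 in the PCM lines, against 8.84 to 9.96 in the B-cell lines (difference 0.17, adjusted p = 0.693). PSPH had 5.42 (LP1), 6.07 (L363) and 7.10 (U266), against 9.98 and 9.57 (Namalwa), 7.37 and 6.79 (SU-DHL6) and 7.82 and 7.97 (SU-DHL4). Its mean difference of -2.05 (SE 0.79) was the largest in size among the members, but U266 overlapped with SU-DHL6 and the adjusted p was 0.237. The LP1 and L363 values of PSPH lay below their array's median. At the second PSPH probe set, every PCM array, from 5.98 to 7.07, was lower than every B-cell array, from 7.23 to 8.32, and the difference of -1.36 gave an adjusted p of 0.124.

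No stress regulator and no aminoacyl-tRNA synthetase passed the test between PCM and B-cell lines, and none had an unadjusted p under 0.05. TRIB3, a pseudokinase that ATF4 induces and that restrains it, had 8.83 (LP1), 8.95 (L363) and 9.32 (U266), against 7.88 to 9.03 in the B-cell lines (difference 0.40, adjusted p = 0.394). CHAC1, which degrades glutathione, and CEBPG, a dimer partner of ATF4, differed by 0.04 and -0.03. Of the 6 synthetases, 4 were lower by their mean, with differences between -0.44 for EPRS1 (glutamate and proline) and 0.42 for WARS1 (tryptophan). GARS1, SARS1 and NARS1, for glycine, serine and asparagine, differed by -0.17, -0.25 and -0.18.

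Between the diffuse large B-cell lymphoma lines SU-DHL6 and SU-DHL4, members such as PHGDH, AARS1 and CBS differed by more than the group means did. PSPH and SLC1A4 did not. These are unlike measures, since a group mean over 3 lines evens out the differences between single lines. In SU-DHL6, PHGDH, AARS1 and SLC1A4 rose and CBS, SLC7A11 and SLC38A1 fell (limma on the 6 B-cell arrays, adjusted p under 0.05). The 3 of 30 higher and 3 of 30 lower (10.0% each) compare with 3.75% and 4.77% of all probe sets. By gene, 558 of 11963 named genes were called higher and 592 lower. The median difference of the members was -0.14, against 0.07 over all named genes. These p-values measure the spread between duplicates, which the labels do not describe as separate cultures and which may be technical.

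PHGDH showed the largest gap, with 10.12 and 10.70 in SU-DHL6, against 6.74 and 7.19 in SU-DHL4. It was 10.9-fold higher in SU-DHL6 (3.45 in log2, SE 0.23, limma adjusted p = 0.00208) and was called in all 12 alternatives. Among these, the fit on all 9 arrays could not differ from the main one, since PCM lines with 1 array each add no spread. Its value on the first SU-DHL4 array lay below the median of that array. The later enzymes of serine synthesis had lower values in SU-DHL6 that did not pass the test. PSAT1 had 9.42 and 8.84, against 9.75 and 9.81 in SU-DHL4 (difference -0.65, adjusted p = 0.120). PSPH had 7.37 and 6.79, against 7.82 and 7.97 (difference -0.81, adjusted p = 0.104). Without the first SU-DHL6 array both passed (adjusted p = 0.0151 for PSAT1 and 0.0361 for PSPH), in a fit that takes the lone SU-DHL6 array to vary like the other lines. Without the second SU-DHL6 array (0.165 and 0.227) or either SU-DHL4 array (0.253 to 0.419) neither did.

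AARS1, the alanyl-tRNA synthetase whose promoter window is printed above, had 10.97 and 11.19 in SU-DHL6, against 9.70 and 9.62 in SU-DHL4. It was 2.68-fold higher (1.42 in log2, SE 0.11, limma adjusted p = 0.00254). AARS1 was called in all 12 alternatives, among them the fit on all 9 arrays, which could not differ. At their brightest probe sets, the other 5 measured synthetases differed by -0.22 to 0.43 and none passed. EPRS1 differed by 0.02 there, but by -0.64 (adjusted p = 0.146) and -1.45 (adjusted p = 0.115) at its dimmer probe sets. ASNS, whose window is also printed above, had 10.73 and 11.32, against 10.28 and 10.06, a difference of 0.85 (SE 0.20) that did not pass (adjusted p = 0.0653). The remaining genes with a printed window, CHAC1, GOT1 and SLC1A5, differed by 0.35, 0.01 and -0.16, and none passed.

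CBS, which joins homocysteine and serine on the way to cysteine, had 7.57 and 7.24 in SU-DHL6, against 8.62 and 8.92 in SU-DHL4. It was 2.58-fold lower (-1.36, SE 0.17, limma adjusted p = 0.00958), and the call was lost without the first SU-DHL4 array (adjusted p = 0.0519) or the second (0.0905). SLC7A11, the cystine importer, had 5.75 and 5.79, against 6.60 and 6.27 (difference -0.66, SE 0.13, adjusted p = 0.0391). All 9 SLC7A11 values lay below their array's median; a second probe set gave -1.14 (adjusted p = 0.0384) and the remaining one -0.28 (adjusted p = 0.119). SLC1A4 had 10.01 and 10.23, against 9.34 and 9.62 (difference 0.64, SE 0.14, adjusted p = 0.0482). Of its dimmer probe sets 1 passed as well (0.94, adjusted p = 0.0202), and 2 did not (0.50, adjusted p = 0.125, and -0.04, adjusted p = 0.916). SLC38A1, a sodium-coupled glutamine transporter, had 9.60 and 9.44, against 10.04 and 10.08 (difference -0.54, SE 0.09, adjusted p = 0.0257). The SLC7A11 call was lost without any 1 of the 4 arrays (adjusted p from 0.0700 to 0.130). The SLC1A4 and SLC38A1 calls were lost without either SU-DHL4 array (0.111 and 0.185 for SLC1A4, 0.120 and 0.155 for SLC38A1) or without the second SU-DHL6 array (0.133 and 0.0616).

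**Figure D3:**
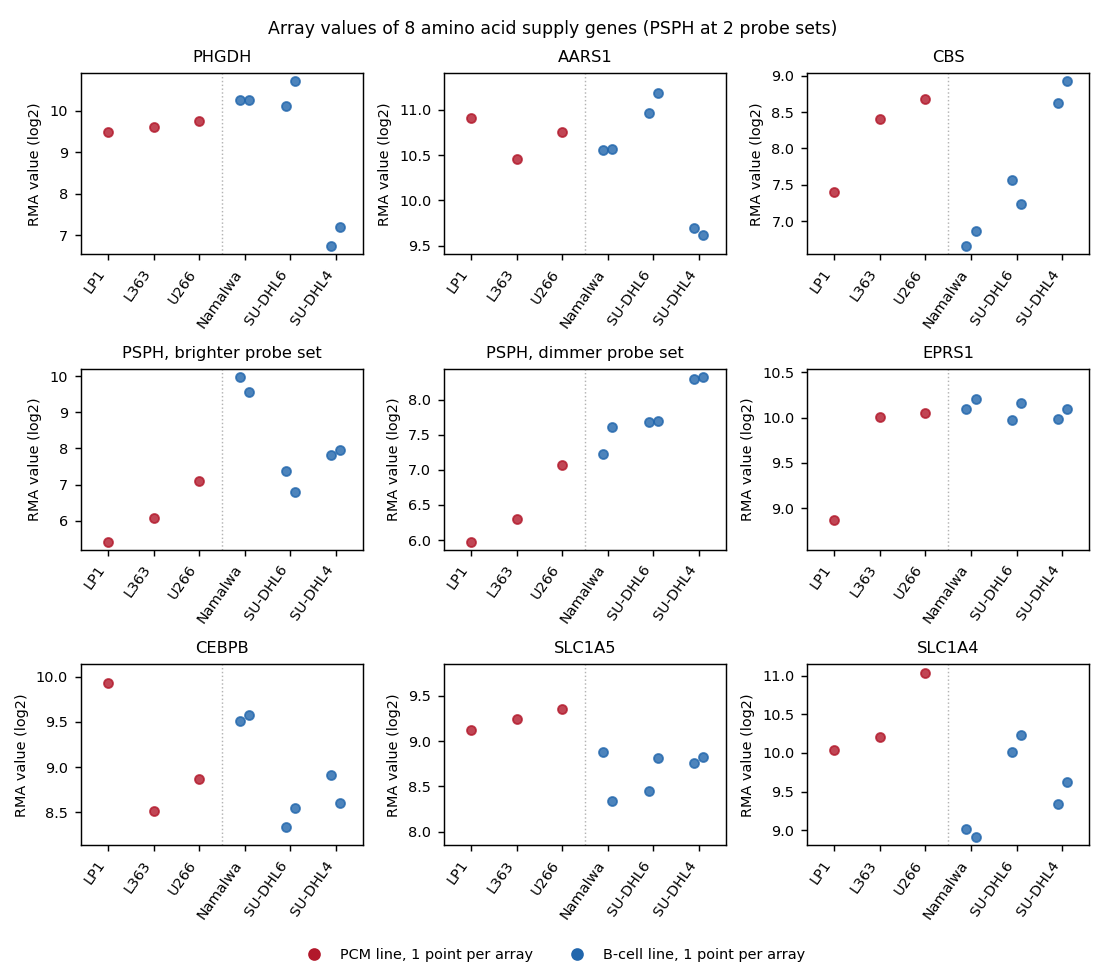
Deposited log2 values of 8 genes on all 9 arrays, with the lines from LP1 to SU-DHL4 along the horizontal axis and PSPH shown at both of its probe sets. Each point is 1 array; PHGDH was lowest on both SU-DHL4 arrays, and the PSPH probe sets ordered Namalwa differently.

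Namalwa, a Burkitt lymphoma line, differed from the mean of the SU-DHL lines at 6 members. PSPH, PHGDH, CEBPB and SLC38A1 rose, and CBS and SLC1A4 fell. The 4 higher (13.3%) and 2 lower (6.67%) of 30 compare with 4.7% and 4.31% of all probe sets. By gene, 619 of 11963 named genes were called higher and 597 lower. The median difference was 0.13 over the members, against -0.01 over all named genes.

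PSPH had 9.98 and 9.57 in Namalwa, against 7.37 and 6.79 in SU-DHL6 and 7.82 and 7.97 in SU-DHL4. It was 4.88-fold higher in Namalwa (2.29 in log2, SE 0.20, limma adjusted p = 0.00363). The second PSPH probe set gave the opposite order, with 7.23 and 7.61 in Namalwa, against 7.68 and 7.70 in SU-DHL6 and 8.29 and 8.32 in SU-DHL4, and its difference of -0.58 also passed (adjusted p = 0.0436). RefSeq lists PSPHP1, a pseudogene copy, on the same chromosome (7) as PSPH; whether either probe set reads it was not tested, and the Namalwa level of PSPH is uncertain. PHGDH was 2.97-fold higher in Namalwa (1.57, SE 0.20, adjusted p = 0.0105), with values close to those of SU-DHL6, so that the low SU-DHL4 pair carried the difference.

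CEBPB, a leucine zipper factor that ATF4 induces, had 9.51 and 9.58 in Namalwa, against 8.34 and 8.55 in SU-DHL6 and 8.91 and 8.60 in SU-DHL4. Both Namalwa arrays were higher than all the SU-DHL arrays (difference 0.94, SE 0.12, limma adjusted p = 0.0103). SLC38A1 had 10.65 and 10.65 in Namalwa, against at most 10.08 in the SU-DHL lines (difference 0.86, SE 0.08, adjusted p = 0.00431). CBS had 6.66 and 6.86, against 7.24 to 8.92 (difference -1.32, SE 0.14, adjusted p = 0.00703). Both Namalwa values of CBS lay below their array's median. SLC1A4 had 9.01 and 8.91, against 9.34 to 10.23 (difference -0.84, SE 0.12, adjusted p = 0.0140), and its dimmer probe sets gave -0.65 (0.0423), -0.72 (0.0275) and -0.39 (0.187). WARS1 had 10.15 and 9.94, against 8.77 to 9.51, and its difference of 0.99 did not pass (adjusted p = 0.0544). None of the 6 calls held without the first Namalwa array (adjusted p from 0.0596 to 0.126), and PSPH alone held without the second (0.0459; the other 5 from 0.0658 to 0.138). The PHGDH call was also lost without the first SU-DHL4 array (0.0510), and that of SLC1A4 without the second (0.0525).

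**Figure D4:**
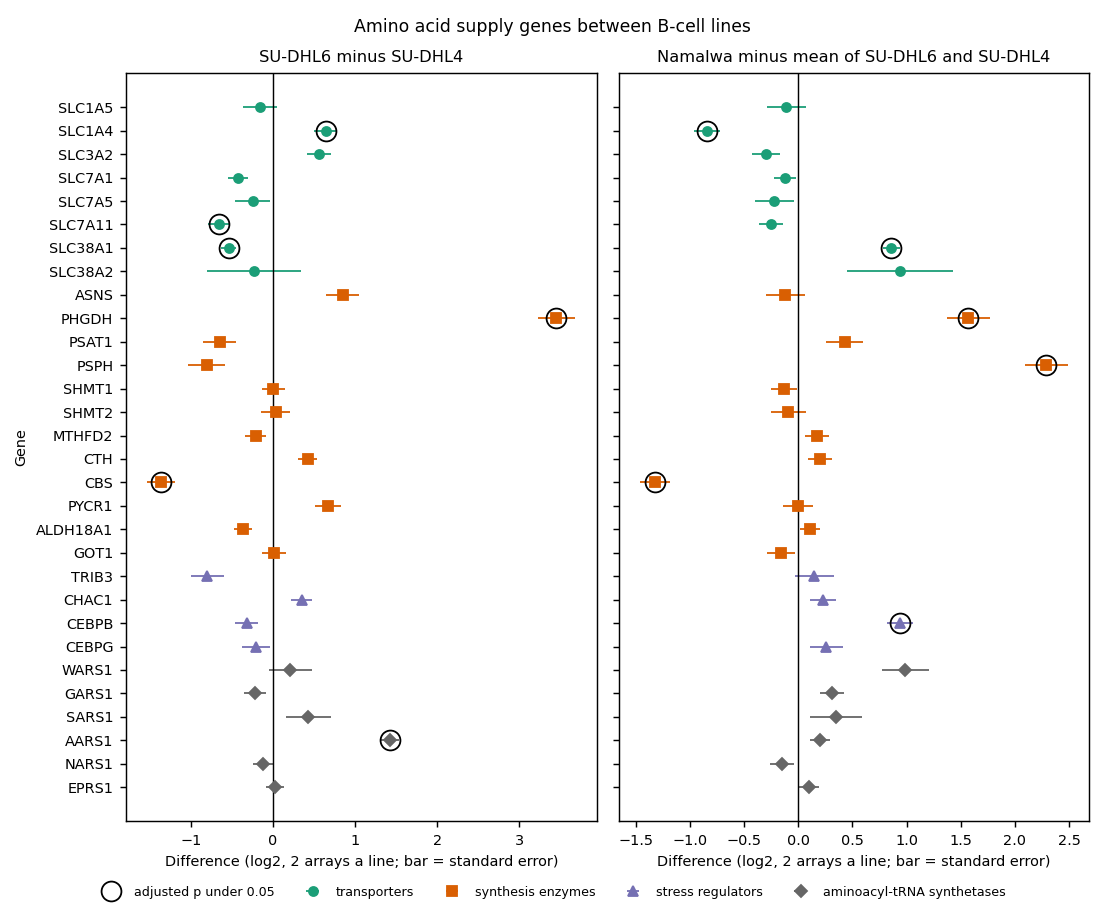
Differences (log2, horizontal axes) of the 30 measured genes for SU-DHL6 minus SU-DHL4 (left) and Namalwa minus the mean of SU-DHL6 and SU-DHL4 (right), with bars for the standard error and rings for an adjusted p under 0.05. PHGDH, at 3.45, was the largest difference on the left and PSPH, at 2.29, on the right; the second PSPH probe set, not drawn, gave -0.58 on the right, where PHGDH stood at 1.57.

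Among the PCM lines there is 1 array each and no test. LP1 differed from the mean of L363 and U266 by more than 1 in log2 at 4 members. CEBPB had 9.93 in LP1, against 8.51 in L363 and 8.87 in U266, 2.36-fold higher than their mean. That 1 of 30 (3.33%) compares with 3.69% of all named genes, and the 3 lower members (10.0%) with 2.44%. The lower members were PSPH (2.25-fold), EPRS1 (2.23-fold) and CBS (2.22-fold). PSPH lay below the array's median in LP1 and L363, so its fold rests on low values. At the second PSPH probe set the difference was -0.71, which did not reach 1 in size. The dimmer EPRS1 probe sets gave -0.82 and -1.06.

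EPRS1, which charges tRNAs with glutamate and with proline, had 8.87 in LP1, against 10.01 in L363, 10.05 in U266 and 9.97 to 10.21 in the B-cell lines. LP1 was thus set apart from all other lines at this probe set. At the other EPRS1 probe sets LP1 had 8.92, against 9.82 in L363 and 9.65 in U266, and 8.31, against 9.22 and 9.50. At the dimmest of them LP1 did not stand apart, since the SU-DHL6 arrays, at 8.72 and 7.36, had a lower mean of 8.04. CBS had 7.40 in LP1, against 8.41 in L363 and 8.68 in U266. SLC38A2, a glutamine transporter that amino acid shortage induces, had 10.31 in LP1, against 9.26 and 9.55, but it also differed by 1.70 between the SU-DHL6 duplicates. MTHFD2, the mitochondrial folate enzyme, had 11.04 in LP1, against 9.85 and 10.52. L363 and U266 differed by more than 1 at PSPH alone, which was 1.03 higher in U266, and 0.78 higher at its second probe set. Of 11963 named genes, 113 were more than 1 higher in U266 and 42 more than 1 lower.

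Ordering the lines at each member, LP1 was highest at 9 of 30 members, Namalwa at 6, SU-DHL6 at 6, U266 at 4, SU-DHL4 at 4 and L363 at 1. Over all named genes, LP1 was highest at 14.6%, Namalwa at 11.5%, SU-DHL6 at 16.8%, U266 at 14.8%, SU-DHL4 at 13.3% and L363 at 29.0%. L363 was lowest at 7 members (23.3%, against 14.9% of all named genes) and U266 at none (0 of 30, against 8.10%). The highest line led the next by more than the member's largest gap between duplicates at 6 members (SLC1A4, SLC3A2, SLC7A1, SLC38A1, PSPH and CEBPB), so at the other 24 it did not stand apart from its neighbour. The lowest line trailed by more than that gap at 9 (SLC1A4, PHGDH, PSPH, MTHFD2, CBS, GARS1, AARS1, NARS1 and EPRS1). PSPH had the widest range over the lines, 4.36, before PHGDH (3.45), SLC1A4 (2.08) and CBS (2.01), but at its second probe set the PSPH range was 2.33, with SU-DHL4 highest. These 4 (13.3%) were the members with a range over 2, against 7.52% of all named genes, and the median range was 0.91, against 0.58. The members also had a higher median level, 9.64 against 7.39, and ranges at matched levels were not compared. SHMT1, the cytosolic serine hydroxymethyltransferase, and CTH, which releases cysteine, ranged by 0.15 and 0.42 at values that lay below the median on all 9 arrays.

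Relative to each gene's mean over the lines, the medians by role are given as a description, over 4 to 12 genes each and with no test. The synthetases had a median of 0.29 in Namalwa and -0.08 in LP1, against -0.04 and -0.02 over all named genes. Of the 6 synthetases, 3 were highest in Namalwa and 3 lowest in LP1, against 11.5% and 19.3% of all named genes. The stress regulators had a median of 0.29 in LP1 and -0.37 in SU-DHL6, against -0.02 and 0.00 over all named genes. The transporters lay between -0.18 (L363) and 0.05 (LP1), and the enzymes between -0.07 (L363) and 0.17 (Namalwa).

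The wider pathway showed few differences between PCM and B-cell lines. Of 17 measured regulators of the integrated stress response, none passed in either direction, and their median difference was -0.30, against 0.05 over all named genes. At an unadjusted p under 0.05, 2 were higher and 4 lower, against 1267 and 1312 of 11963 named genes. ATF4 had 11.08 (LP1), 11.08 (L363) and 11.03 (U266) in the PCM lines, against 11.22 to 11.55 on the 6 B-cell arrays. All PCM values were lower, by a mean of 0.33 that did not pass (-0.33, SE 0.08, limma adjusted p = 0.107), and ATF4 mRNA does not measure its translation. DDIT3, the stress-induced factor CHOP, and ATF3 differed by -0.10 (adjusted p = 0.681) and 0.25 (adjusted p = 0.539).

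GLDC and GOT2 were the changed genes among 24 measured enzymes outside the set. GLDC, the decarboxylase of the glycine cleavage system, had 10.42 (LP1), 9.74 (L363) and 8.54 (U266) in the PCM lines, against 6.02 to 6.29 on all B-cell arrays. It rose by 3.40 (SE 0.47, limma adjusted p = 0.0300), the B-cell values showing almost no spread and the PCM values a wide one. All B-cell values of GLDC lay below their array's median, where little spread need not mean a steady level. GOT2, the mitochondrial aspartate aminotransferase, had 11.10 (LP1), 10.94 (L363) and 10.88 (U266), against 11.31 to 11.78, and fell by 0.63 (-0.63, SE 0.09, adjusted p = 0.0339). The GLDC call was lost without L363 (adjusted p = 0.127), Namalwa (0.0796), SU-DHL4 (0.107) or SU-DHL6 (0.0833), and with L363 and U266 averaged (0.0505). The GOT2 call was lost without L363 (0.121), U266 (0.0956), Namalwa (0.0790), SU-DHL4 (0.122) or SU-DHL6 (0.0875), and with L363 and U266 averaged (0.103). It was also lost after a second quantile normalization (0.0937), after centring on the 75th percentile (0.0514), and with array 1 (0.111) or array 2 alone (0.0683). Of 19 alternatives, 6 called GOT2 and 13 called GLDC.

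No gene passed among 11 other cytosolic synthetases and their partners, 10 mitochondrial synthetases, 17 other transporters and 19 genes of amino acid sensing and mTORC1. At an unadjusted p under 0.05 these lists had 0, 0, 3 and 1 higher, and 2, 1, 1 and 0 lower genes, in that order. Of 11963 named genes, 1267 were higher and 1312 lower at that threshold. The median differences of the lists were -0.04, -0.22, 0.07 and 0.00. By line means, 6 of the 17 other transporters (35.3%) lay higher in all PCM lines than in all B-cell lines, against 17.5% of all named genes, and 1 (5.88%) lay lower, against 11.8%.

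Between SU-DHL6 and SU-DHL4, 3 of the 11 other cytosolic synthetases and their partners rose, as did 3 of the 10 mitochondrial synthetases, and none fell. Of all probe sets, 3.75% were called higher and 4.77% lower. At an unadjusted p under 0.05, 1 gene of the cytosolic list, a complex partner and not a synthetase, and 0 mitochondrial synthetases were lower. Of 11963 named genes, 1361 were lower at that threshold. The synthetases that follow were named after their values were seen. CARS1, for cysteine, had 10.58 and 10.57 in SU-DHL6, against 9.30 and 9.45 in SU-DHL4 (difference 1.21, limma adjusted p = 0.00281). VARS1 (valine) and TARS1 (threonine) differed by 1.17 (adjusted p = 0.0213) and 0.81 (0.0423). HARS2, the mitochondrial histidine enzyme, had 8.05 and 8.05, against 6.73 and 6.78 (difference 1.30, adjusted p = 0.00206), and SARS2 and FARS2 differed by 0.64 (0.0232) and 0.83 (0.0464). In the other lists, higher and lower counts in SU-DHL6 were 1 and 0 of 17 stress response regulators, 0 and 1 of 17 transporters, 2 and 2 of 24 enzymes and 3 and 3 of 19 sensing genes. In Namalwa against the SU-DHL lines they were 1 and 0, 0 and 1, 3 and 1, and 4 and 3 for these lists. They were 2 and 0 for the cytosolic list, 1 of the 2 being a complex partner, and 1 and 2 for the mitochondrial synthetases. Of all probe sets, 4.7% were called higher and 4.31% lower in Namalwa.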

How the data were processed

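RNA of 6 cell lines was measured on 9 arrays. The authors deposited log2 values normalized by RMA, per the series' design text, with no detection call and no version, and a table that holds, per the file headers, a p-value, an adjusted p-value and a log2 difference per probe set, made with a moderated t-test. Tests covered 22215 probe sets, without 68 controls. Symbols came from the platform table (19065 probe sets with 1 symbol, 1043 with several, 2107 with none) and were updated by gene ID to RefSeq GRCh38.p14. With R 4.3.3 and limma 3.58.1, duplicates were averaged and 3 PCM lines were tested against 3 B-cell lines (4 residual degrees of freedom); B-cell lines were compared on 6 arrays with line as a factor (3 residual degrees of freedom). A call is a Benjamini-Hochberg adjusted p under 0.05 over all probe sets, two-sided. The number of arrays limits the precision. Named were all measured members, up to 3 called genes of each further list with the smallest p in the PCM comparison, and ATF4, DDIT3 and ATF3. Outside this rule, 6 synthetases (CARS1, VARS1, TARS1, HARS2, SARS2 and FARS2) were named after their values were seen. The members and lists were chosen with earlier results of these data known. Between duplicates, replicate 1 minus replicate 2 correlated over all probe sets by -0.44, -0.15 and 0.20 between lines, so replicate numbers were not taken as pairs. The authors' difference column runs B-cell minus PCM. Scripts were tested on simulated data. The alternatives stand in the closing section.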

Additional observations from a re-analysis of the deposited data

How the results depend on the processing

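In PCM against B-cell lines, where 1 member was called, the count was 2 with each array as a replicate and 2 by the authors' deposited p-values (SLC1A5 higher and SLC7A1 lower in both). It was 0 with array 1 alone, 0 with array 2 alone, 0 among probe sets above the median level, 0 with a trended and robust variance model, 0 at an adjusted p under 0.01 and 0 with L363 and U266 averaged. Without 1 line it ranged from 0 to 1, the 1 being SLC1A5 without LP1. With line as a random block the count was 1, but a different gene, SLC7A1. In SU-DHL6 against SU-DHL4, with 6 called, the replicate block left 3 (PHGDH, AARS1 and CBS); an adjusted p under 0.01 also left 3, and dropping _x_at and _s_at probe sets left 3 with 17 members not tested. Without 1 array it ranged from 2, without either SU-DHL4 array, to 11, without the first SU-DHL6 array. In Namalwa against the SU-DHL lines, with 6 called, the replicate block gave 7 (WARS1 added), an adjusted p under 0.01 gave 3 and dropping those probe sets gave 2; without 1 array it ranged from 0, without the first Namalwa array, to 8, without either SU-DHL6 array. No called member changed sign in any alternative run, but no run put a dimmer probe set in place of the brightest. The second PSPH probe set gave the opposite sign in Namalwa against the SU-DHL lines (-0.58, limma adjusted p = 0.0436). Since RMA gives no detection call, low values such as those of SLC7A11, SHMT1 and CTH, of PSPH in LP1 and L363, and of CBS in Namalwa bound nothing.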
